A study of Bos taurus with 8 samples.

Results

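The expression of 7 complement genes was followed in cells of bovine skeletal muscle and in cultures grown from it. The genes were chosen by name, as the rows of the deposited gene list carrying the symbols C1R (ENSBTAG00000008612), C1S (ENSBTAG00000004840), C3 (ENSBTAG00000017280), CFD (ENSBTAG00000048122), C7 (ENSBTAG00000011766), CFI (ENSBTAG00000034501) and SERPING1 (ENSBTAG00000016267). All 7 were found among 21880 listed genes. The data were single-cell RNA-seq profiles of 36129 cells from 10 Belgian Blue cattle, with muscle as Timepoint 1 and culture without serum as the later timepoints. Timepoint 2 was passage 0, reached after 72 h, and Timepoints 3 to 5 were passage 2, passage 5 and passage 8. Cells of 3 animals (donors 1, 2 and 9) stayed unsorted on fibronectin, those of donors 4, 7 and 8 were sorted as fibro-adipogenic progenitors (FAPs) and grown on collagen I, and those of donors 5, 6 and 10 were sorted as satellite cells (SCs) and grown on laminin-521. The coatings are as the paper's methods list them. The paper also describes a laminin coating as an improvement informed by its expression analysis, so the coating of these SC cultures is not certain. Donor 3 was sampled in muscle alone. The animals were 5 calves (donors 2, 4, 5, 7 and 10) and 5 adults. Donors 6, 8 and 10 were male and the others female, so that the unsorted cultures came from females alone. Each of the 3 kinds of culture thus came from its own animals and, as listed, its own coating, and the animals, the coating and the sort cannot be told apart.

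Complement is a cascade of plasma proteins that marks microbes and damaged cells. C1R and C1S are the paired serine proteases of the C1 complex, which starts the classical pathway by cleaving C4 and C2. C3 is the central component on which all pathways converge. CFD, factor D or adipsin, cleaves factor B in the amplification loop of the alternative pathway. C7 is a subunit of the membrane attack complex, which forms pores in target membranes. SERPING1, the C1 inhibitor, blocks C1R and C1S, and CFI, factor I, cleaves C3b and C4b. Liver is the main source of most of the plasma proteins, and fibroblasts and macrophages are known to make several of them locally. FAPs are the fibroblast-like cells between muscle fibres, marked by PDGFRA.

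Values are unique molecular identifiers (UMIs) of a gene per 1000000 UMIs of all genes (CPM), summed over the cells of 1 donor, 1 timepoint and 1 annotated cell type with at least 10 cells. The animal was the replicate. Where ranges of donors are said not to overlap, the share of all genes that separate in this way was not computed. A change was called at an adjusted p under 0.05 in edgeR's quasi-likelihood test together with a change of more than 2-fold. Folds are on the log2 scale with an SE. This SE was derived as the size of the log2 change over the square root of the test's F value, and is approximate at low counts. Each timepoint was 1 library, so time and library cannot be told apart. The 5 libraries held 2772 to 10405 cells, with a median of 4184 UMIs per cell in muscle and 18340 to 27239.5 in culture, and 129 of 36000 barcodes occurred in more than 1 library. FAPs numbered 1231 in muscle (52 to 350 per donor), 5756 at passage 0 and 2616 to 6819 later. All 5 FAP markers (PDGFRA, DCN, LUM, COL1A1, DPT) were detected in FAPs at every timepoint, but their summed median level moved from 27706 CPM in muscle to 4062 at passage 0, 21206 at passage 2, 24694 at passage 5 and 13528 at passage 8.

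In muscle, FAPs had by far the most UMIs of C1R, C1S, C7 and SERPING1, whereas CFD was led by macrophages, C3 was split between macrophages and FAPs, and CFI came mostly from vascular endothelium. The type called macrophages here is the one the authors named monocytes and macrophages, so it may hold both. FAPs made up 28.0% of the muscle cells and 36.8% of their UMIs. They held 95.8% of all C1R UMIs, 95.7% of C1S, 91.5% of C7, 80.0% of SERPING1, 54.2% of C3, 14.3% of CFD and 6.10% of CFI. The name stromal complement genes therefore fitted 4 of the 7 genes in these data, and CFI and CFD went against it. Since the cell types were annotated from the same expression values, levels by type are a description without a test.

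The 2 proteases had nearly the same pattern. C1R in muscle FAPs ranged from 494 CPM in donor 6 over a median of 777 to 2235 in donor 4, with a mean of 905 ± 503 CPM (SD, n = 10). The next type with sums from several donors, smooth muscle and mesenchymal cells (SMMCs), had 51.1 CPM, with donors between 13.0 and 121. Every FAP value was thus above every SMMC value, while all other neighbouring types with several donors overlapped in their ranges. C1S ranged from 477 CPM in donor 6 over 708 to 2243 in donor 4, with a mean of 895 ± 514 CPM (SD, n = 10) against 44.7 CPM in SMMCs. In lymphocytes, blood cells not known for making C1S, 5.9% of cells had a C1S UMI, whereas 90.9% of FAPs did (95% exact binomial interval 89.2 to 92.4%), at median depths of 4407 and 6213 UMIs. For C1R these shares were 4.8% and 88.7%. The intervals cover counting error alone. Types with few cells also had UMIs of both. Pooled over donors, 23 tenocytes had 338 CPM of C1R and 218 of C1S, and 45 myocytes 144 and 162 CPM. A group of 23 neutrophils from donor 4 had 159 CPM of C1R and 296 of C1S, with its summed FAP markers at 7009 CPM.

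SERPING1, their inhibitor, was spread more widely. FAPs ranged from 872 CPM in donor 6 over a median of 1189 to 2619 in donor 4, with a mean of 1323 ± 509 CPM (SD, n = 10), and 95.6% of the cells had a UMI. SCs, the muscle stem cells, came next with 570 ± 240 CPM (SD, n = 10) and a range of 268 to 1093, overlapping the FAPs, although FAPs were above SCs in 10 of 10 donors. Lymphatic endothelium (LECs) had 222 ± 66.8 CPM over 4 donors, SMMCs 157, vascular endothelium (VECs) 84.2, lymphocytes 44.4 and macrophages 7.56. The 23 tenocytes, pooled over donors, had 810 CPM, and 82.6% of them had a UMI.

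C7, the pore subunit, had 2 sources. FAPs ranged from 91.8 CPM in donor 6 over 254 to 907 in donor 4 (mean 319 ± 226, SD, n = 10), and SMMCs from 19.6 to 143 (mean 61.8 ± 41.4, SD, n = 10). The ranges overlapped, and FAPs were the higher of both in 10 of 10 donors. No other type with sums from several donors passed a mean of 10.98 CPM, the lymphocyte level, while the 23 neutrophils of donor 4 had 91.0 CPM and, pooled over donors, the myocytes 66.2 and the tenocytes 14.1 CPM. A C7 UMI was found in 48.4% of FAPs (95% exact binomial interval 45.6 to 51.2%).

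CFD and C3 had their highest mean level in macrophages. Macrophages had 4766 ± 1274 CPM of CFD (SD, n = 10), between 3204 and 7121, and 92.8% of them had a UMI. FAPs followed with 322 ± 250 CPM (SD, n = 10), from 72.1 in donor 6 over 271 to 925 in donor 4, and did not overlap macrophages. Among types with sums from several donors, lymphocytes were next at 18.7 CPM (up to 62.6), and VECs at 14.6 CPM reached 78.4 CPM in donor 8, which overlapped the lowest FAP value. The 23 neutrophils of donor 4 had 2640 CPM. C3 had 41.8 ± 23.4 CPM in macrophages (SD, n = 10) and 21.6 ± 27.8 in FAPs (SD, n = 10), where it ran from 0 in donor 9 over 6.27 to 73.5 in donor 2. Macrophages were the higher in 8 of 10 donors, and C3 averaged at most 0.413 CPM in every other type. CFI had 82 UMIs in all of the muscle library, 61 of them in VECs, where the mean was 10.9 ± 9.77 CPM (SD, n = 10). FAPs had 5 CFI UMIs. CFI did not pass the filter on low counts in any comparison below, in FAPs or in other types.

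**Figure D1:**
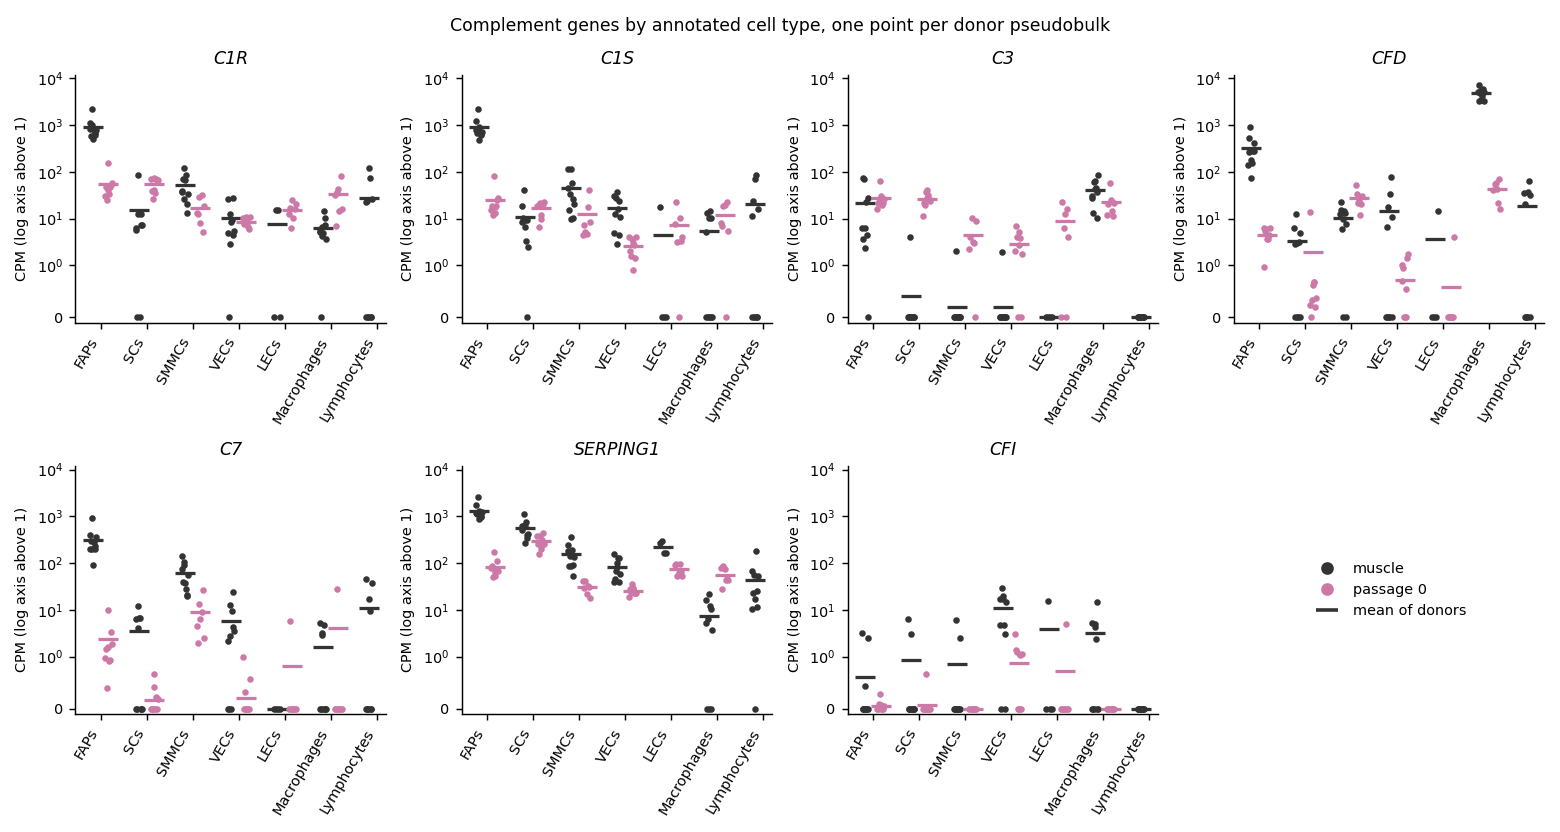
Level of each complement gene in CPM (linear below 1 and logarithmic above) by annotated cell type, with 1 point per donor in muscle (dark) and at passage 0 (pink) and a bar at the mean of donors. In muscle the FAP points of C1R and C1S lie above 476 CPM and clear of every other type, macrophages lead for CFD, and at passage 0 most of these gaps have closed.

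Among the muscle FAPs the genes were not spread evenly. The 596 FAPs with a C7 UMI had 523 CPM of CFD against 62.1 CPM in the 635 FAPs without one, and were higher in 10 of 10 donors. Split the other way, the 368 FAPs with a CFD UMI had 594 CPM of C7 against 178 in the other 863, again in 10 of 10 donors. Cells with C7 also had less CFB, factor B itself (14.1 against 257 CPM, lower in 10 of 10 donors). C1R was at 875 CPM in cells with C7 and 942 in cells without, lower in 7 of 10 donors, and at 849 CPM in cells with CFD and 934 in cells without, lower in 9 of 10. The summed FAP markers were 30374 CPM in cells with C7 and 25022 in cells without, higher in 10 of 10 donors. The summed macrophage markers were 75.2 and 72.6 CPM, and the median depths were 5984.5 and 6506 UMIs. For the split by CFD, macrophage markers were 90.9 and 67.4 CPM, and FAP markers 29084 and 26943 CPM. The part of these markers in the splits was not tested.

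C3 was detected in few muscle FAPs. Its 149 UMIs came from 45 cells, or 3.7% of FAPs (95% exact binomial interval 2.7 to 4.9%), with up to 13 UMIs in a cell. These cells had 1450 CPM of C1S against 852 in the other FAPs, higher in 8 of 9 donors with such cells. Their C4A, the substrate of C1S, was at 678 against 112 CPM, higher in 7 of 9 donors. SAA3, an acute phase protein, stood at 1025 against 7.26 CPM, but was higher in only 2 of 9 donors. The summed FAP markers were 33364 against 27303 CPM, higher in 8 of 9 donors, and their part was not tested. All of these splits are descriptions, since the cells share their libraries and animals.

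At passage 0, 5 of the 6 complement genes that could be tested in FAPs had fallen, by 14.6-fold (SERPING1) to 117-fold (C7). In this comparison 22.4% of the 9208 genes tested were called lower. The median log2 change of the 6 genes was -4.47, against 0.03 over all genes tested. C3 was the exception. The comparison asks how the cells' expression differed after 72 h in culture from that in tissue, with 9 donors against 10.

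C1R in FAPs was between 25.4 CPM in donor 4 and 158 in donor 5 at passage 0, with a median of 47.3, against 494 to 2235 in muscle. Its log2 change was -3.92 ± 0.41 (edgeR adjusted p = 4.59e-08). C1S ran from 11.9 CPM in donor 4 over 18.2 to 80.2 in donor 5, a log2 change of -5.01 ± 0.46 (edgeR adjusted p = 7.61e-09). For both proteases, all 9 donors seen at both timepoints were lower at passage 0, and no passage 0 value reached the lowest value in muscle. SERPING1 ran from 50.6 CPM in donor 4 over 66.6 to 169 in donor 5, and its log2 change was -3.87 ± 0.28 (edgeR adjusted p = 1.58e-10). The inhibitor thus fell with both proteases, also in 9 of 9 donors and without overlap.

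C7 was left at 0.388 CPM in donor 4 to 10.0 in donor 5, with a median of 1.43. Its log2 change was -6.87 ± 0.60 (edgeR adjusted p = 4.65e-09), with all 9 donors lower. CFD was left at 0.965 CPM in donor 1 to 6.43 in donor 2, with a median of 4.35, a log2 change of -6.0 ± 0.48 (edgeR adjusted p = 1.03e-09) with all 9 donors lower. Neither gene overlapped its range in muscle. With each cell thinned to 2000 UMIs, the share of FAPs with a UMI went from 32.5% to 0.6% for C7 and from 20.2% to 0.9% for CFD, while before thinning these shares in muscle were 48.4% and 29.9%.

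C3 did not follow. At passage 0 it was between 16.4 CPM in donor 1 and 62.6 in donor 5, with a median of 22.2, inside its range of 0 to 73.5 in muscle. The log2 change was 0.49 ± 0.52 (edgeR adjusted p = 0.398), and the interval of 2 SE ran from -0.55 to 1.52. It was higher in 6 and lower in 3 of 9 donors, and without donor 5 the change was -0.076. The 3 that fell, donors 2, 4 and 10, were calves, going from 73.5, 69.5 and 27.1 CPM to 21.2, 22.2 and 26.8 CPM. All adults seen at both timepoints rose, donors 1, 6, 8 and 9, as did calves 5 and 7. Whether the change differed by age was not tested. Other values moved beside these results in FAPs. The FAP markers went from a median of 27706 to 4062 CPM and macrophage markers from 74.0 CPM (41.9 to 144) to 24.6 (21.4 to 34.5). Muscle fibre markers, genes of the contractile fibres, went from 797 to 0.350 CPM. Their part in the changes was not tested.

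The same comparison in other cell types gave fewer testable genes, with 1 or 2 past the filter on low counts in each. SERPING1 was called lower in VECs at -1.82 ± 0.21 (edgeR adjusted p = 2.00e-08), where 19.5% of the genes tested were called lower. In SMMCs it was -2.44 ± 0.31 (edgeR adjusted p = 6.35e-07), with 21.3% of genes called lower, and in LECs -1.68 ± 0.27 (edgeR adjusted p = 1.41e-05), with 14.9% called lower and 4 donors in muscle. None of these 3 types overlapped between muscle and passage 0. In LECs the lymphatic markers went from a median of 7946 to 416 CPM and the FAP markers from 49.8 to 416 CPM, and their part was not tested. In SCs the SERPING1 change was -0.98 ± 0.24 (edgeR adjusted p = 0.00125), short of 2-fold, with 8 of 9 donors lower. Macrophages, from 7 donors at passage 0, fell in CFD from 4766 CPM to 43.1 CPM (16.3 to 68.5), or by 6.93 ± 0.27 on the log2 scale (edgeR adjusted p = 2.97e-14), against 20.5% of genes called lower. The share of macrophages with a CFD UMI went from 92.8% to 24.8%, and from 90.9% to 8.0% at 2000 UMIs per cell. Their summed macrophage markers went from a median of 5288 to 2638 CPM, neutrophil markers from 187 to 7030 and FAP markers from 74.1 to 1354 CPM, and the part of these was not tested.

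Among the genes past the filter on low counts, 1 rise was called, C1R in SCs. Without the filter more were. CFD in SMMCs, at 10.1 CPM in muscle and 28.0 at passage 0, was then called at 1.87 ± 0.36 (edgeR adjusted p = 2.53e-06). In macrophages, C1R, at 6.22 and 33.0 CPM, was called at 2.08 ± 0.47 (edgeR adjusted p = 8.25e-05) and SERPING1, at 7.56 and 56.9 CPM, at 2.41 ± 0.36 (5.70e-10). C3 was then called higher in SCs, VECs and SMMCs. Other genes were called lower without the filter. In VECs, the main source of CFI, CFI went from 14.9 to 1.06 CPM over all cells (61 and 13 UMIs; log2 change -3.34 ± 0.51, edgeR adjusted p = 5.10e-07), and C1S, C7 and CFD were lower too. So were C1S, C1R, C7 and CFI in SMMCs, C7 and CFI in SCs, and C3 and CFI in macrophages. These CFI calls rest on very few UMIs in muscle and at passage 0, with 2 and 2 in SCs, 4 and 0 in SMMCs, and 8 and 0 in macrophages. C3 in macrophages overlapped, at 10.5 to 85.0 CPM in muscle and 11.4 to 56.8 CPM at passage 0. C1R in SCs was 15.1 ± 25.6 CPM in muscle (SD, n = 10), from 0 to 86.6, and 53.8 ± 18.5 at passage 0 (SD, n = 9), from 25.8 to 74.9. The log2 change was 1.82 ± 0.48 (edgeR adjusted p = 0.00213), with 8 of 9 donors higher and 16.3% of the 5221 genes tested called higher. The ranges overlapped only through donor 4, the highest in muscle. C3 in SCs did not pass the filter, and went from 1 UMI over 647 cells in muscle to 1244 over 2282 cells at passage 0, a ratio of 80.4 in CPM (95% counting interval 14.4 to 3178). Every SC value of C3 at passage 0, from 11.5 to 41.2 CPM, was above the highest in muscle, 4.13 CPM. The summed FAP markers in SCs also moved, from 131 to 1521 CPM, as did the SC markers, from 1564.5 to 154.6 CPM, and their part in both results was not tested. In SMMCs the mural markers went from a median of 11231 to 3459 CPM, and in VECs the vascular markers from 2716 to 1971 CPM. Their part was not tested either.

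Whether the log2 change in FAPs differed from that in other types was tested by the interaction of cell type and timepoint. Several genes passed the filter on low counts only in the joint fit with FAPs. In SCs alone C3, C1S, C7 and CFD did not pass it, and in SMMCs and in VECs alone only SERPING1 did. The differences of those genes rest on low counts in the other type, such as 9 UMIs of CFD in muscle SCs and 18 in muscle SMMCs. Because they passed only in the joint fit, the counts of genes below are a description, also where a share of all genes stands beside them. Against SCs, 5 of 6 genes had a lower log2 change in FAPs, where 12.4% of genes were called in that direction. C1R had risen in SCs, and C3 was not called in FAPs. The differences in log2 change were -5.94 ± 0.63 for C1R (edgeR adjusted p = 1.91e-09), -5.88 ± 0.67 for C1S (9.69e-09), -3.10 ± 0.36 for SERPING1 (1.13e-08) and -4.11 ± 1.41 for CFD (0.0192). That of C3, -5.82 ± 1.68 (edgeR adjusted p = 0.00542), rests on the 1 UMI in muscle SCs and depends on the prior count of the fit. Against SMMCs, 5 of 6 genes had a lower log2 change in FAPs (11.5% of genes called in that direction), led by CFD at -7.90 ± 0.78 (edgeR adjusted p = 9.77e-10). CFD in SMMCs had 6 of 7 donors higher at passage 0. C7 differed by -3.52 ± 1.28 (edgeR adjusted p = 0.0342), C1S by -3.12 ± 0.88 (0.00632), C1R by -2.64 ± 0.69 (0.00339) and SERPING1 by -1.69 ± 0.45 (0.00427). With at least 30 cells per sum, C1S, C7 and SERPING1 lost this call against SMMCs (adjusted p = 0.0746, 0.312 and 0.0669), and C1S against VECs reached 0.0502. Against VECs, 3 of 6 had a lower log2 change in FAPs (13.9% of genes called), namely C1R at -3.70 ± 0.68, SERPING1 at -2.26 ± 0.37 and C1S at -2.29 ± 0.93 (edgeR adjusted p = 2.81e-05, 4.56e-06 and 0.0426).

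**Figure D2:**
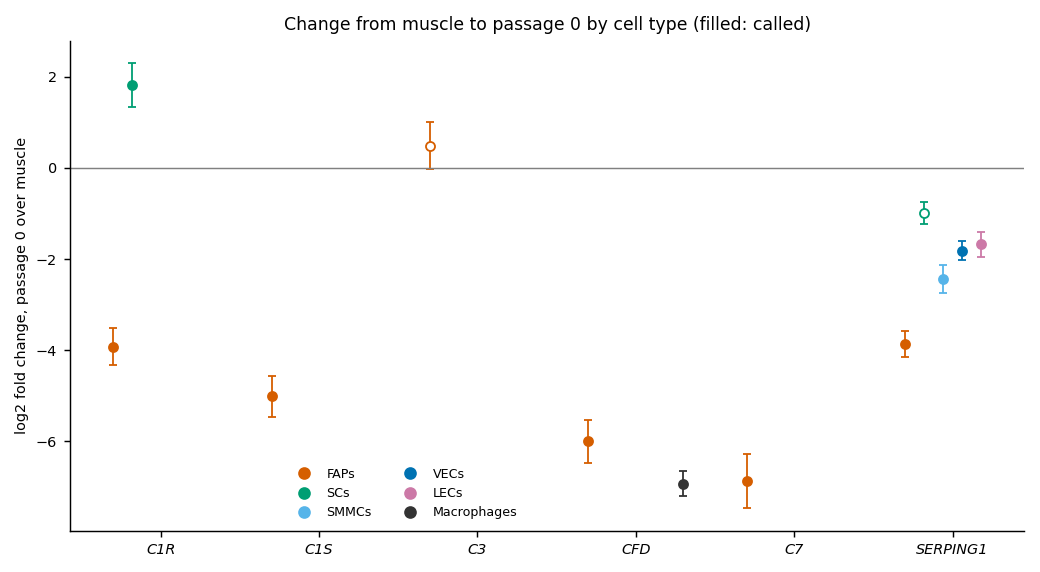
Log2 fold change from muscle to passage 0 (y axis) of each complement gene that could be tested (x axis), by cell type, with SE bars and filled points for called changes. FAPs lie between -6.87 and -3.87 in 5 genes, C3 lies at 0.49 and uncalled, SERPING1 lies below 0 in all 5 types tested, and C1R in SCs at 1.82 is the one called rise among them.

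The order of the types was therefore different at passage 0. C7 and CFD were higher in SMMCs than in FAPs in 7 of 7 donors, at 9.03 and 28.0 CPM on average against 2.39 and 4.55 in FAPs. SERPING1 was higher in SCs than in FAPs in 9 of 9 donors, at 290 ± 91.3 against 83.0 ± 37.1 CPM (SD, n = 9 each). C1R did not separate FAPs from SCs, with 54.5 and 53.8 CPM on average and FAPs higher in 3 of 9 donors. FAPs, with 67.7% of UMIs in that library, held 46.8% of SERPING1 UMIs, 69.6% of CFD, 73.8% of C3, 75.5% of C1R, 82.1% of C1S and 88.7% of C7. SMMCs, 347 cells of the 7 donors with at least 10 at passage 0, also had more summed FAP markers than in muscle, 1178 against 370 CPM, and the part of these in the order was not tested.

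From passage 0 to passage 2, 5 of 6 genes rose in the FAPs of the 6 donors kept unsorted or sorted as FAPs. In this comparison 13.6% of 11439 genes were called higher, and the median log2 change was 2.93 over the 6 genes and 0.04 over all genes tested. The rise took C3 above its level in muscle, whereas the means of the proteases, SERPING1, CFD and C7 stayed under theirs.

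C1S went from 11.9, 13.3, 14.9, 18.2, 18.6 and 24.4 CPM to 98.5, 162, 197, 207, 259 and 631 CPM, each list in rising order. Its log2 change was 4.08 ± 0.42 (edgeR adjusted p = 1.80e-06). C1R went from between 25.4 and 51.0 CPM to between 156 and 695, a log2 change of 3.19 ± 0.35 (edgeR adjusted p = 3.74e-06). C3 went from between 16.4 and 23.0 CPM to between 109 and 370, a log2 change of 3.34 ± 0.29 (edgeR adjusted p = 4.08e-07), and all 6 passage 2 values were above the highest of 73.5 in muscle. SERPING1 went from between 50.6 and 112 CPM to between 126 and 548, a log2 change of 1.8 ± 0.36 (edgeR adjusted p = 6.29e-04). For these 4 genes 6 of 6 donors rose and the ranges did not overlap, and donor 8 was the highest at passage 2 in each.

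CFD rose less evenly. It was between 0.965 and 6.43 CPM at passage 0, and 5.77 (donor 1), 9.46 (donor 9), 13.0 (donor 4), 15.1 (donor 2), 21.2 (donor 7) and 81.1 CPM (donor 8) at passage 2. The log2 change was 2.68 ± 0.63 (edgeR adjusted p = 0.00193), with 6 of 6 donors higher and the ranges touching through donors 1 and 2. C7 was not called, at 1.57 ± 1.01 (edgeR adjusted p = 0.180), and only 2 of 6 donors were higher at passage 2. Without donor 8, which had 18.4 CPM while no other donor passed 1.30, the C7 change was -0.64. With each cell thinned to 2000 UMIs, passage 2 FAPs had a C3 UMI in 29.6% of cells (5.3% at passage 0), C1S in 36.5% (5.4%) and C1R in 43.2% (10.3%), against 92.1%, 93.2% and 95.2% at passage 2 before thinning. The summed FAP markers rose over the same interval, from a median of 4062 CPM to 21206, as did the mural markers, from 57.5 to 592 CPM. Markers of adipocytes (0.453 to 17.8 CPM), tenocytes (1.37 to 30.3), mesothelium (0.775 to 14.1), glia, muscle fibre and hepatocytes also rose. Those of SCs, endothelium, macrophages, lymphocytes and neutrophils fell. The part of all these markers was not tested. In the 3 unsorted cultures alone, C3, C1S and C1R kept the call, while CFD (1.57, edgeR adjusted p = 0.0801) and SERPING1 (0.91, 0.00342, short of 2-fold) did not.

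**Figure D3:**
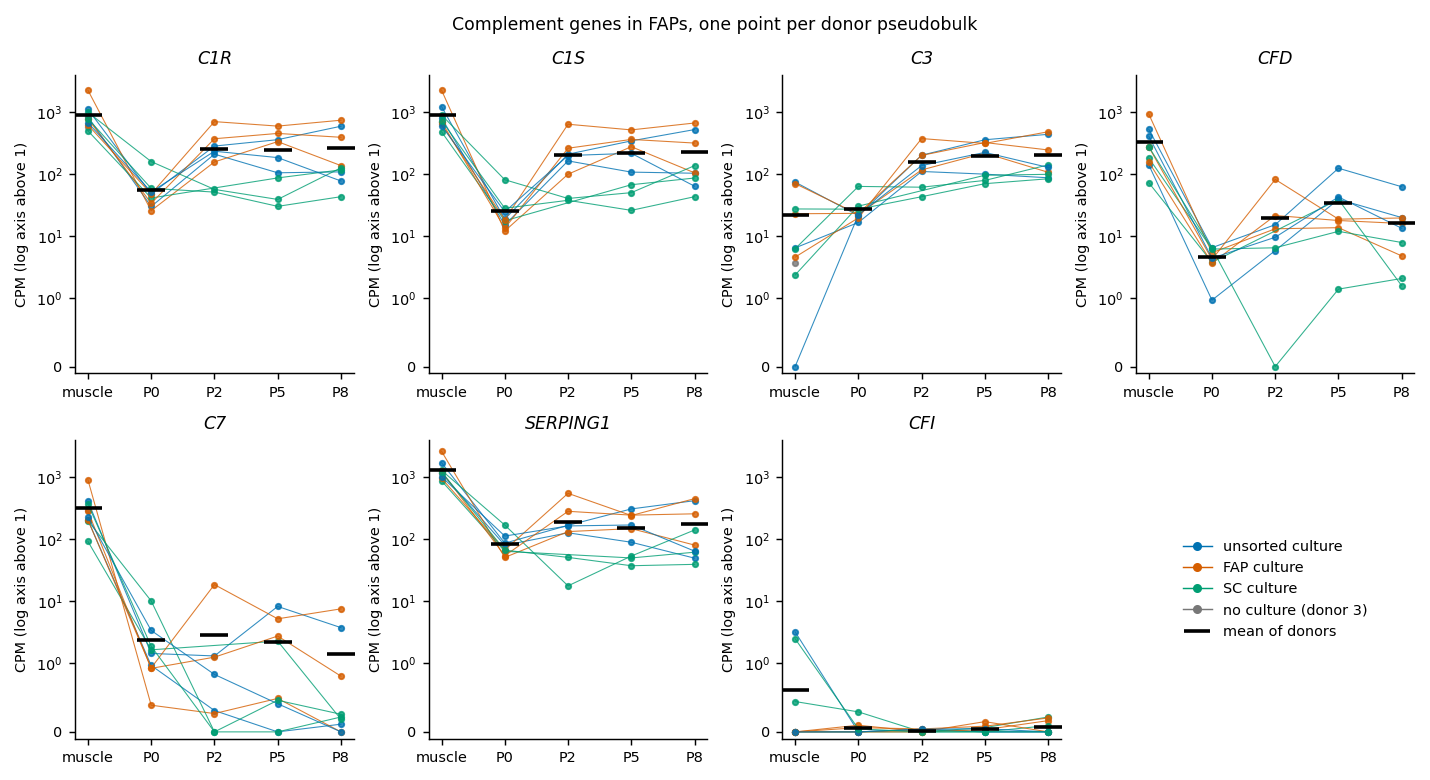
Level of each complement gene in FAPs in CPM (linear below 1 and logarithmic above) in muscle and at passages 0, 2, 5 and 8, with 1 point per donor, lines joining a donor's points, colours for the kind of culture and a bar at the mean of donors. All genes but C3 and CFI drop at passage 0, in unsorted and FAP cultures C3, C1R and C1S lie above their passage 0 values at every later passage, SERPING1 does so at passages 2 and 5 but not in donors 1 and 9 at passage 8, and C7 stays below 19 CPM in culture.

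Later passages brought no called change over these 6 donors when pooled. From passage 2 to passage 5, 0 of 6 genes were called by edgeR (0 with an unadjusted p under 0.05 and 0 by DESeq2), where 3.34% of genes were called. Log2 changes ran from -0.19 (C7) to 0.96 (CFD). For CFD, the call differed between the kinds of culture fitted alone. In unsorted cultures alone it was called higher at passage 5, at 2.86 ± 0.60 (edgeR adjusted p = 0.0390), with donors 1, 2 and 9 going from 5.77, 15.1 and 9.46 CPM to 38.8, 123 and 42.4 CPM. In FAP cultures alone the change was -1.11 ± 0.66 (edgeR adjusted p = 0.317), with donors 4, 7 and 8 going from 13.0, 21.2 and 81.1 CPM to 13.5, 17.6 and 18.5 CPM. The difference between these changes was not tested. From passage 5 to passage 8, 0 of 5 genes were called (0 with an unadjusted p under 0.05 and 0 by DESeq2), where 2.02% of genes were, with log2 changes from -1.09 (CFD) to 0.01 (SERPING1). The intervals of 2 SE were wide, from -0.43 to 2.36 for CFD at passage 5 and from -1.26 to 1.05 for C1R at passage 8, and both include a change of 2-fold.

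Donors differed widely at passage 8. There C1R was 733 CPM in donor 8, 586 in donor 2 and 388 in donor 7, but 136 in donor 4, 107 in donor 1 and 76.6 in donor 9. C1S stood in the same order, from 660 CPM in donor 8 to 63.1 in donor 9. C3 was 477 CPM in donor 8 and 434 in donor 2, and between 86.2 and 243 in the other 4. Donor 4 had the highest C1R, C1S, C7, CFD and SERPING1 in muscle, and lay below donors 2, 7 and 8 in C1R, C1S and SERPING1 at passage 8. The order of donors was not the same at each passage, with C1R in donor 4 at 156 CPM at passage 2, the lowest of the 6, and at 331 CPM at passage 5, above donors 1 (104) and 9 (183).

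The FAPs that appeared in SC cultures were low in 4 of the 6 genes at passage 5 compared with FAPs of FAP cultures, with 7.9% of genes called lower. C1R was 29.8, 38.6 and 85.8 CPM in donors 10, 5 and 6, against 331, 448 and 589 CPM in donors 4, 7 and 8. Its log2 difference was -3.49 ± 0.43 (edgeR adjusted p = 0.00173, 3 donors against 3). C1S was 25.7, 49.6 and 66.6 CPM against 274, 359 and 511, a difference of -3.25 ± 0.39 (edgeR adjusted p = 0.00147). C3 was 69.3, 78.2 and 94.8 CPM against 216, 310 and 320, a difference of -2.03 ± 0.18 (edgeR adjusted p = 1.16e-04). SERPING1 was 37.2, 49.7 and 53.3 CPM against 148, 240 and 244, a difference of -2.35 ± 0.25 (edgeR adjusted p = 4.09e-04). In these 4 genes each donor of the SC cultures was below each donor of the FAP cultures. The share of all genes that separate in this way was not computed, so this is a description. C7 differed by -4.06 ± 1.79 (edgeR adjusted p = 0.122; without donor 4 by -4.60, 0.0140) and CFD by -0.55 ± 0.70 (edgeR adjusted p = 0.588), and both overlapped.

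The FAPs of SC cultures were also low in the markers of the type. Their summed FAP markers were 6832, 8262 and 8619 CPM at passage 5, against 32334, 41193 and 41404 CPM in FAP cultures, and donors 5, 6 and 10 gave 593, 31 and 70 such cells. SC markers in these FAPs were 7.65, 75.6 and 25.2 CPM in the same order of donors, against 11.2 to 13.7 CPM in FAP cultures. At passage 8 the values stood side by side as follows, without a test. C1R was 42.7, 116 and 125 CPM in SC cultures and 136, 388 and 733 in FAP cultures, and C3 was 83.1, 98.1 and 139 CPM against 106, 243 and 477, which overlapped. C1S, at 42.7, 85.5 and 135 CPM against 104, 313 and 660, and SERPING1, at 39.1, 61.4 and 140 CPM against 80.1, 256 and 450, overlapped as well. The FAP markers were then 7517, 7587 and 9986 CPM against 13528, 31236 and 34398. Their part in the difference was not tested.

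FAPs of unsorted cultures were not called different from FAPs of FAP cultures. At passage 2, 0 of 6 genes were called by edgeR (1 with an unadjusted p under 0.05, 0 by DESeq2), and 0.017% of genes were. That 1 was CFD, which was lower in unsorted cultures, at -1.84 ± 0.75 on the log2 scale (edgeR adjusted p = 0.493). All 6 were lower in unsorted cultures, from -0.55 ± 0.46 (C3, edgeR adjusted p = 0.737) to -2.91 ± 1.44 (C7, 0.573). With so few genes called, the count of 0 is not a result about these genes and does not show that the cultures were alike. At passage 5, 0 of 6 were called by edgeR, against 1.04% of genes, which is not a result about these genes either. Of the 6, 1 had an unadjusted p under 0.05 and 1 was called by DESeq2. At passage 5 it was CFD again, in the opposite direction, at 38.8, 42.4 and 123 CPM in unsorted cultures (donors 1, 9 and 2) and 13.5, 17.6 and 18.5 CPM in FAP cultures (donors 4, 7 and 8). Its log2 difference was 2.12 ± 0.50 with an edgeR adjusted p of 0.0748, and the groups did not overlap. Without donor 2, the highest, the difference was 1.34 with an edgeR adjusted p of 0.0320.

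**Figure D4:**
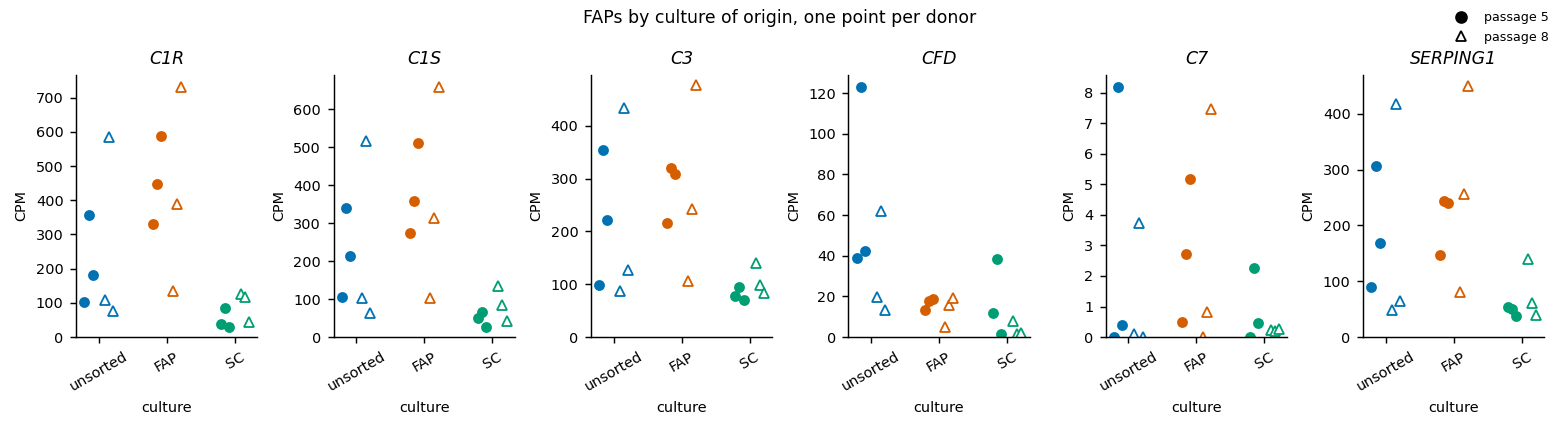
Level of 6 complement genes in FAPs in CPM (y axes from 0, each with its own scale) by kind of culture, with 1 point per donor at passage 5 (filled circles) and passage 8 (open triangles). At passage 5 the SC cultures lie below 96 CPM in C1R, C1S, C3 and SERPING1 and below every FAP culture, and CFD is highest in an unsorted culture, at 123 CPM.

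In SCs, no gene was called between passages 0 and 2 over the 6 donors of SC and unsorted cultures when pooled (0 of 4 by edgeR, 0 with an unadjusted p under 0.05, and 1, C1S, by DESeq2), where 8.73% of genes were called. Log2 changes ran from -0.75 (SERPING1) to 1.22 (C1S). Each kind of culture taken alone gave 2 calls. In SC cultures C1R (-2.06 ± 0.45, edgeR adjusted p = 0.0196) and SERPING1 (-2.09 ± 0.21, 0.00153) were lower at passage 2. In unsorted cultures C3 (2.5 ± 0.40, edgeR adjusted p = 0.00464) and C1S (1.98 ± 0.42, 0.0143) were higher. The difference between the kinds of culture was not tested. In SCs of all cultures the summed FAP markers went from a median of 1521 CPM at passage 0 to 6543 at passage 2 and mural markers from 84.5 to 620 CPM, and their part was not tested. SC levels of SERPING1 were 290 CPM at passage 0, 209 at passage 2, 140 at passage 5 and 129 at passage 8 (9, 9, 7 and 4 donors), and were above those of FAPs of the same donor in 5 of 8 donors at passage 2 and 4 of 4 at passage 8. C1R and C1S were higher in FAPs than in SCs in all 8 donors at passage 2 and all 7 at passage 5, and in 3 of 4 at passage 8.

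FAPs of 5 calves were compared with FAPs of 5 adults. In muscle, 0 of 5 genes were called by edgeR (4 with an unadjusted p under 0.05, 2 by DESeq2), where 1.32% of genes were called, and all 5 were higher in calves by 0.77 to 1.22 on the log2 scale. SERPING1 was 1220, 1239, 1290, 1712 and 2619 CPM in calves and 872, 959, 1020, 1146 and 1159 CPM in adults. The groups did not overlap, and the log2 difference was 0.77 ± 0.20 (edgeR adjusted p = 0.0605). C1R was 776, 777, 984, 1099 and 2235 CPM in calves and 494, 569, 615, 669 and 831 CPM in adults, which overlapped, with a log2 difference of 1.01 ± 0.31 (edgeR adjusted p = 0.119). C3 did not pass the filter on low counts in this comparison. It was 6.17, 22.7, 27.1, 69.5 and 73.5 CPM in calves and 0, 2.32, 3.70, 4.52 and 6.37 CPM in adults, which overlapped. At passage 0, with 5 calves against 4 adults, 0 of 6 genes were called (0 with an unadjusted p under 0.05, 0 by DESeq2). Of all genes 0.0% were called by edgeR, so that this count is not a result about these genes.

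Other complement genes were counted from a list of 36 symbols, of which 35 had a row. In FAPs at passage 0, 12 of them were tested, 7 were called lower and 3 higher, with a median log2 change of -1.46 against 0.03 over all genes tested. Of all genes 22.4% were called lower and 21.0% higher. C4A, the substrate of C1S, fell from 153 to 1.6 CPM on average (log2 change -6.44). The regulators on the cell's own membrane also fell, with CD59, which blocks the pore, at -5.30, CD46 at -1.76 and CD55 at -1.74. CLU, which binds the pore complex in fluid, was at -2.82, COLEC12, a scavenger receptor of the collectin family, at -3.38, and MASP1, a protease of the lectin pathway, at -1.17. The 3 that rose were PTX3, a pentraxin that binds C1q (5.19), C1QBP, a mitochondrial protein first found as a C1q binder (2.53), and C2, the other substrate of C1S (2.11).

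From passage 0 to passage 2, 15 of these genes were tested in FAPs, with 7 called higher, 4 lower and a median log2 change of 0.68 against 0.04 over all genes tested. Of all genes 13.6% were called higher and 9.79% lower. C2 rose from 22.1 to 348 CPM (log2 change 4.11) and CFB from 106 to 1645 (4.10), in 6 of 6 donors each. C4A was called at 1.75, with means of 1.3 and 4.1 CPM, but the second holds 14.8 CPM in donor 8, 1 of 6 donors was lower and the ranges overlapped. It stayed far under its 153 CPM in muscle. C8G (2.49), CLU (1.29), MASP1 (1.21) and C5AR2 (1.04) were the other rises, and CD93 (-5.70), C5AR1 (-3.17), C1QBP (-2.03) and COLEC12 (-1.09) fell. From passage 2 to passage 5, 0 of 15 tested were called, and from passage 5 to passage 8, 0 of 13, where 3.34% and 2.02% of all genes were called, so that these counts are not a result about the list. In FAPs of SC cultures at passage 5, 14 were tested, with 8 lower and 1 higher, where 7.9% of all genes were called lower and 7.99% higher. C6, a subunit of the pore, differed by -5.72, C4A by -3.39, C2 by -2.81 and CFB by -2.67. COLEC12 (-2.31), PTX3 (-1.73), CLU (-1.14) and C8G (-1.02) were the other lower genes, and C1QBP (1.42) was the higher. Unsorted and FAP cultures differed in 1 of 15 tested at passage 5, PTX3 (log2 difference 1.2), where 1.04% of all genes were called.

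In macrophages at passage 0, where CFD fell, 18 genes of the list were tested and 8 were lower and 4 higher, where 20.5% of all genes were called lower and 14.1% higher. All 3 chains of C1q, which carries C1R and C1S, were lower (C1QB -5.08, C1QC -4.32 and C1QA -3.84), with C1QA at 6898 CPM in muscle and 515 at passage 0. The receptors CR2 (-9.44), C3AR1 (-6.21) and VSIG4 (-3.13), the ficolin FCN1 (-3.21) and COLEC12 (-3.58) fell as well. COLEC12 was lower in 7 of 7 donors, but FCN1 in 4 of 7, with overlapping ranges. CR2 had no UMI in any macrophage sum at passage 0, so that its fitted fold is no bound. PTX3 (7.82), C1QBP (1.89), CLU (1.32) and CD55 (1.06) rose. CD59 did not pass the filter on low counts in macrophages. The marker levels given above for CFD in macrophages moved beside these changes too, and their part was not tested.

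**Figure D5:**
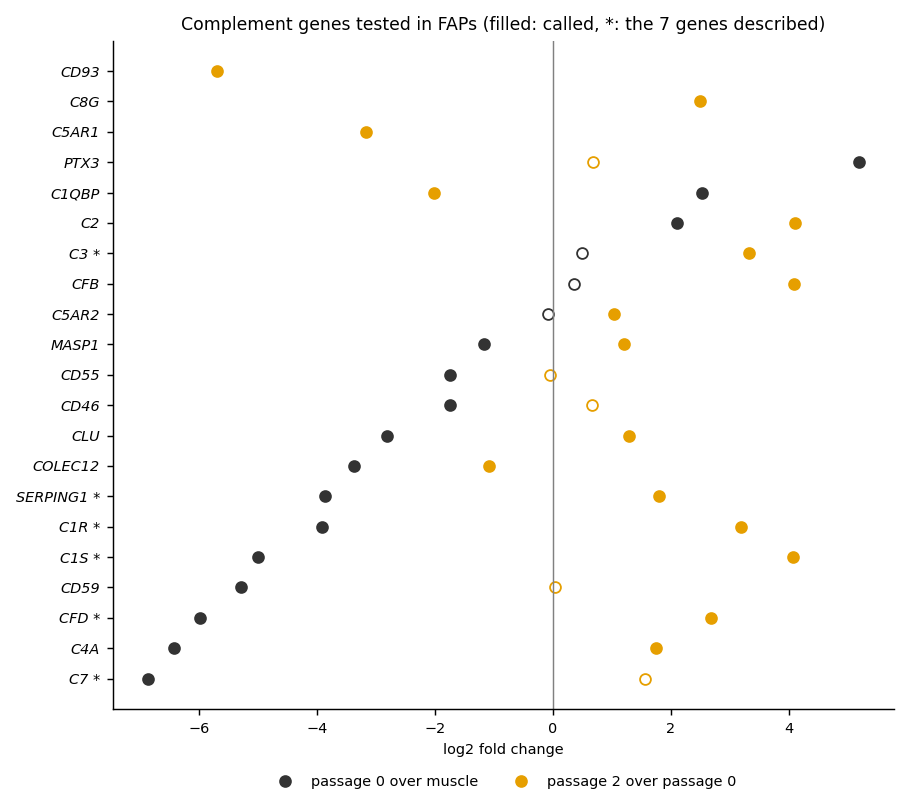
Log2 fold change (x axis) in FAPs of the complement genes listed that were tested, from muscle to passage 0 (dark) and from passage 0 to passage 2 (yellow), ordered by the first, with filled points for called changes. C7, C4A, CFD and CD59 lie lowest in the first comparison, and C2, CFB, C1S, C3 and C1R lie above 3 in the second.

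Genes of the acute phase and interferon responses, which are known to induce several complement genes, were counted from a list of 30. In FAPs at passage 0, 24 were tested, 7 were higher and 6 lower (29.2% and 25.0% of those tested). This is near the 21.0% of all genes called higher and 22.4% called lower, and is not a result about the list. Among them the cytokines CXCL8 (6.30) and IL6 (5.43) and the antioxidant enzyme SOD2 (3.71) rose, and the cytokine receptor subunit IL6R (-3.17) and the glucocorticoid target TSC22D3 (-2.70) fell. At passage 2, 28 were tested with 5 higher and 3 lower (17.9% and 10.7% of those tested), near the 13.6% and 9.79% of all genes, which is not a result about the list. The interferon-induced ISG15 (4.26) and IRF1 (2.23) rose together with SAA3 (3.62). ISG15 had 22.3 CPM at passage 0 and 387 at passage 2, higher in 6 of 6 donors. IL6 went the other way over the same interval, from 439 to 59.6 CPM. From passage 5 to passage 8, 1 of 27 tested was called, IL6, which rose by 1.04 on the log2 scale, where 2.02% of all genes were called.

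The gene most like each complement gene was sought over 19 combinations of cell type and timepoint, by Pearson's r of mean log2(CPM + 1) among 11090 genes. These points share libraries, depth and donors, and r is given as a description. C1R and C1S were each other's closest gene, with an r of 0.946, followed for C1R by COL14A1, a fibril-associated collagen. C3 was closest to C2 (r = 0.980), then FMN1 and IL18. C7 was closest to PDE1A (r = 0.968), AGTR1 and ANGPTL1, CFD to ENPP5 (r = 0.913), SERPING1 to GPM6B (r = 0.892) and CFI to CCDC68 (r = 0.931). C3 and C7 had an r of -0.31 with each other.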

How the data were processed

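Cells were isolated from bovine muscle and profiled by 3′ single-cell RNA-seq (10x Genomics), with 1 library per timepoint and up to 10 animals pooled in it. The authors aligned reads with Cell Ranger 6.0.1 to ARS-UCD1.2 and deposited raw UMI counts per gene and barcode, and the matrix of a library was taken to hold all of its sequencing runs. The authors assigned cells to donors with demuxlet and kept those within limits on genes, UMIs and mitochondrial share. All cells of the deposited cell table are labelled as singlets. Doublets within 1 donor are not seen that way, and no doublet caller was run here. The other columns used were the deposited labels of each cell (library, barcode, donor and cell type, named by the authors). A deposited table of values after sctransform was not used, nor were 11 columns of the cell table. Age class, sex and kind of culture of each donor came from the study's list of animals. Passage 0 is labelled with sorted and unsorted cells, and its cells were treated as not yet sorted, following the methods.

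Raw counts were summed per timepoint, donor and cell type (at least 10 cells) and tested over all genes with edgeR 4.0.16 (TMM, its filter on low counts, robust quasi-likelihood test, Benjamini-Hochberg adjustment over all genes tested). Donors were the replicates. Alternatives were DESeq2 1.42.0, total UMIs as scaling, no filter, at least 30 cells, sums thinned to the smallest, cells thinned to 2000 UMIs, cultures taken alone, sex as a covariate, donors left out, and donor as a block. The same animals recur over time, which pairs the samples. In FAPs the deviations of a donor in muscle and at passage 0 correlated at -0.08 to 0.26 (median 0.10 over 9 donors and 1994 genes), above 0.1 in 5 of 9 donors. The scripts were tested on simulated counts. Depth per library was 20977722 to 252316585 UMIs, and muscle was the shallowest. The 7 genes, the lists and the tests were chosen with earlier results of these data known. All 7 genes were counted in every comparison in which they were tested, with values for those called and mostly ranges for the rest. Other complement genes were named where called in FAPs or macrophages, and at most 6 acute phase or interferon genes. An item of the complement list is not reported here. In the RefSeq annotation of ARS-UCD2.0, a different build, CFD overlaps MED16, and C3, C1R and CFI each overlap a gene without a formal name. Whether reads were shared between them is not known. No sequence or coordinate is given, since no genome of the files' build was used here.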

Additional observations from a re-analysis of the deposited data

Results flagged for a closer look

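In 74 groups of 4 to 10 donors, 18 had a highest donor that stood apart from the rest by Dixon's 95% criterion. The criterion assumes normal values, while these were untransformed CPM. The groups also share donors and sums, so the count of 18 cannot be set against a rate of chance. Donor 4 accounted for 7 of them. In muscle FAPs donor 4 was at 2235 CPM for C1R, 2243 for C1S, 907 for C7, 925 for CFD and 2619 for SERPING1, and in muscle SCs it was at 86.6 CPM for C1R and 41.3 for C1S. Donor 5 stood apart at passage 0, with 158 CPM of C1R, 80.2 of C1S and 62.6 of C3 in FAPs and 56.8 CPM of C3 in macrophages. Donor 8 did so for FAPs at passage 2, with 631 CPM of C1S and 81.1 of CFD, and for CFD in muscle VECs at 78.4 CPM. Donor 2 had the highest CFD in FAPs at passages 5 and 8, at 123 and 61.8 CPM. The remaining values were C1S in SMMCs of donor 9 at passage 0, 41.5 CPM, and SERPING1 in muscle lymphocytes of donor 7, 179 CPM.

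The change from muscle to passage 0 differed between FAPs and another type by the interaction test in 13 cases, all with a lower log2 value in FAPs. Of these, only C1R and SERPING1 against SCs, and SERPING1 against SMMCs and VECs, also passed the filter on low counts in that type alone. The count of 13 is therefore given as a description. Against SMMCs the differences were -3.12 for C1S, -2.64 for C1R, -3.52 for C7, -7.90 for CFD and -1.69 for SERPING1. Against VECs they were -2.29 for C1S, -3.70 for C1R and -2.26 for SERPING1. Against SCs they were -5.82 for C3, -5.88 for C1S, -5.94 for C1R, -4.11 for CFD and -3.10 for SERPING1.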

How the results depend on the processing

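Taking the donor as a replicate block left 5 of the genes called in FAPs at passage 0 and 5 at passage 2, and changed none of 13 counts and no other call. Over all alternatives but leaving donors out, with these 13 included, 84 counts of called genes stayed within 1.5 times the reported count and 17 did not. Without the filter on low counts, 4 genes were called in SCs at passage 0, 6 in VECs, 7 in SMMCs and 5 in macrophages. CFI was among them in each type, on very few UMIs outside VECs. With at least 30 cells, 4 were called in SMMCs and 2 in the difference between FAPs and SMMCs. Thinned to the smallest sum, which leaves fewer counts, 0 were called in VECs, SMMCs and LECs, and 3 in the difference from SMMCs. In unsorted cultures alone, 3 genes were called in FAPs from passage 0 to passage 2, 1 (CFD) from passage 2 to passage 5, and 2 in SCs from passage 0 to passage 2, where SC cultures alone also gave 2 and DESeq2 gave 1. DESeq2 called 1 gene (CFD) between unsorted and FAP cultures at passage 5 and 2 (C1R and C7) between calves and adults in muscle. The cause of these shifts was not tested. Leaving out 1 donor at a time gave 4 to 5 genes for SC against FAP cultures, 0 to 1 for unsorted against FAP cultures at passage 5 (CFD without donor 2), 0 to 1 for age in muscle (C3 without donor 5), and left the counts as they were for age at passage 0, unsorted against FAP cultures at passage 2 and LECs (not run for the other types, later passages or differences between types). For FAPs at passages 0 and 2, where it was added after seeing the data, the count stayed at 5 to 5. Directions turned for C7 at passage 2 in unsorted cultures alone (-0.99) and without donor 8 (-0.64, in a range of -0.64 to 2.26 over the donors left out), for C3 at passage 0 without donor 5 (-0.076, in a range of -0.076 to 0.90), and for CFD of SC against FAP cultures after thinning (0.57), none of them called in the report. Scaling by total UMIs moved the median log2 change of all genes by over 0.1 in several comparisons, from 0.04 to -0.11 in FAPs at passage 2, and turned no direction of the 7 genes. With it the share of called genes that were higher went from 58.1% to 46.3% at passage 2, from 75.6% to 89.1% at passage 8, from 50.3% to 64.9% for SC against FAP cultures, from 43.2% to 24.0% for age in muscle and from 32.7% to 42.8% for the difference from SMMCs. Over all genes, DESeq2 called 77 against 2 by edgeR between unsorted and FAP cultures at passage 2, 344 against 121 at passage 5, and 8 against 0 for age at passage 0. Leaving out a donor took the first of these edgeR counts to between 0 and 10, and the second down to 1 (without donor 8). Dropping the filter changed 8 of 17 such counts by over 1.5 times (0.905 to 3.39 times), and thinning 13 of 17 (0.236 to 1.0 times). Outside FAPs, 1 or 2 of the 7 genes passed the filter on low counts in each type at passage 0.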
